A study of Mus musculus with 4 samples.

Results

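The aminoacyl-tRNA synthetases were followed here in astrocyte-enriched cultures (AECs) of mouse cortex, untreated or after 15 h of oxygen–glucose deprivation (OGD). The members were the 36 genes of a fixed list of names, 20 for enzymes of the cytosol and 16 for enzymes of mitochondria, whose names end in 2. They were found as all non-control spots whose gene name on the array equaled one of the list, which gave 47 of the 39429 probes and 36 of the 29676 gene names. The cytosolic genes held 24 of these probes and the mitochondrial genes 23.

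Each synthetase joins an amino acid to the transfer RNAs (tRNAs) that carry its anticodons, and the charged tRNA then delivers that amino acid to the ribosome. Mammalian cells translate in the cytosol and, for a few subunits of the respiratory chain, inside mitochondria, and most amino acids have a separate nuclear gene for the enzyme of each compartment. *Gars* and *Kars* are exceptions, since each encodes both the cytosolic and the mitochondrial enzyme. Uncharged tRNA activates the kinase GCN2, which starts the integrated stress response and raises translation of the transcription factor ATF4, and several genes of cytosolic synthetases are known ATF4 targets.

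All groups shared the same source: mixed glia from cortices of newborn ICR mice, depleted of microglia with PLX3397, which inhibits the receptor CSF1R on which these cells depend. The untreated group was 2 cultures, and the OGD group was 2 cultures kept for 15 h in medium without glucose under hypoxia. Per the methods, wells were seeded from independent cultures of different pups, while the labels give only the numbers 1 and 2, so the p-values measure the spread between these samples. Cy3-labeled RNA of each culture was hybridized to its own single-color array, and all 4 arrays were on 1 slide.

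The quantity read was the processed signal, an intensity with the background subtracted but no scaling between arrays. Untreated arrays had a 75th percentile of 2135 and 2164, and OGD arrays one of 887 and 776, whereas the spiked-in control RNA differed by only −0.085 on the log2 scale. As in the methods, the 75th percentile of the array was subtracted from each log2 signal, and a fold change below is OGD over untreated on that scale. This choice sets the sign of many values, so values scaled on the spike-in probes are given beside it. Per the methods a fixed amount of total RNA was labeled, so neither scale gives an amount per cell or per culture. On the spike-in scale the median log2 fold change of all 21061 genes tested was −1.13, against 0.16 with the 75th percentile.

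The astrocyte label held by its markers, as 10 of 10 were well above background throughout and their summed signal was 321649 to 358848 untreated and 180696 to 201918 after OGD. On the 75th percentile scale 6 of them were called higher and 1, *Sox9* at −1.52, lower, and their median log2 fold change was 0.67, against 0.66 for the cytosolic synthetase genes. Microglial markers summed to 4420 to 4971 untreated and 5069 to 5979 after OGD, with *Cx3cr1* and *Ptprc* dim on both OGD arrays. Unscaled, *Cd68* went from 1157 and 1213 to 4301 and 3778, and each of the other microglial markers had a lower mean signal after OGD. On the 75th percentile scale *Aif1*, *Csf1r* and *Cd68* were called higher and *Tmem119* lower, with a median log2 fold change of 0.27 over the 8 markers. Oligodendrocyte markers were present, with a summed signal of 62163 to 63420 untreated and 19734 to 23260 after OGD, and on the 75th percentile scale 3 of 8 were called higher and 3 lower, down to −2.50 for *Olig2*. The other unscaled sums were lower after OGD, as was the 75th percentile of the arrays. They were 17059 to 17720 against 6357 to 7490 for neurons and 549 to 615 against 239 to 308 for NG2 glia. Over 3 markers of meningeal fibroblasts they were 5374 to 7972 against 1502 to 2220. On the 75th percentile scale 2 neuronal markers were called higher and 2 lower, and of the NG2 markers 1 each way. Of the fibroblast markers 0 were called higher and 1 lower, and of the endothelial markers 0 either way. Among all genes tested 37.1% were called higher and 27.8% lower. Of 6 neuronal markers 4 were well above background throughout, *Rbfox3* on 2 arrays and *Neurod6* on none. Of the 2 endothelial markers *Pecam1* was so on all 4 and *Cldn5* on none, and their sum was 52.3 to 64.7 against 21.5 to 23.3. The part of these markers in the results below was not tested, and in such bulk samples fewer cells of a type and less RNA per cell cannot be told apart.

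After OGD, the cytosolic synthetase genes were mostly higher relative to the array's 75th percentile and the mitochondrial ones mostly lower. With limma at an adjusted p under 0.05, 13 of 20 cytosolic genes rose, none fell (0 of 20) and 7 did not pass. Of the 16 mitochondrial genes, 9 fell, 1 rose (*Ears2*) and 6 did not pass. Among all genes tested by the same rule, 37.1% were called higher and 27.8% lower, so that a call as such was common in this comparison. The median log2 fold change was 0.66 for the cytosolic genes (range −0.23 to 1.26) and −0.49 for the mitochondrial ones (range −3.05 to 0.32), a difference of 1.15, against 0.16 for all genes. A change above this median of all genes was seen in 17 of 20 cytosolic and in 3 of 16 mitochondrial genes. With the spike-in scaling 0 of 20 cytosolic genes rose and 14 fell, and all 16 mitochondrial genes fell, against 3.84% of all genes higher and 83.3% lower. The class medians were then −0.63 and −1.77, and the difference between them was again 1.15, since one scaling moves every gene by the same amount.

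**Figure D1:**
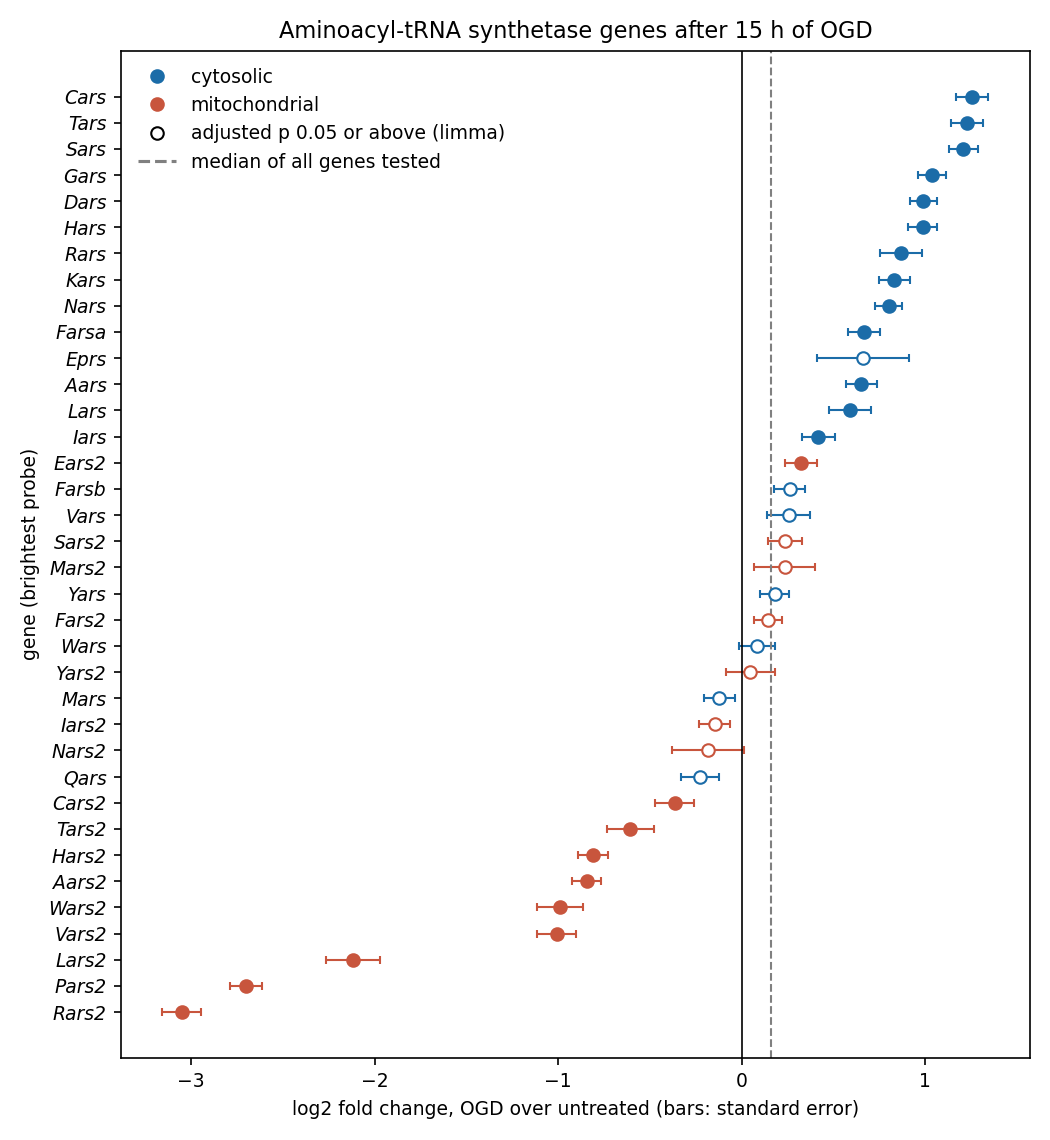
Log2 fold change (OGD over untreated, 75th percentile scaling) of the 36 synthetase genes, 1 point per gene from its brightest probe with its limma standard error (n = 2 arrays per group). Blue points are cytosolic and red points mitochondrial genes, filled where the adjusted p was under 0.05, and the dashed line is the median of all genes at 0.16. The 9 genes at the bottom are all mitochondrial, down to −3.05 for *Rars2*, and the 14 at the top all cytosolic. With spike-in scaling all 36 values would be below 0.

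All 36 genes had a brightest probe that was well above background on all 4 arrays, and 44 of the 47 probes were. In 32 of 36 genes the scaled values of the groups did not overlap, 19 of 20 cytosolic and 13 of 16 mitochondrial, beside 84.8% of all genes. The 4 genes with overlapping values were *Wars*, *Mars2*, *Yars2* and *Nars2*. The unscaled signal had a lower group mean after OGD in all 36 genes. With 2 arrays against 2, an exact permutation test of a single gene cannot give a two-sided p below 0.333, and the calls rest on the spread that limma takes in part from all probes.

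**Figure D2:**
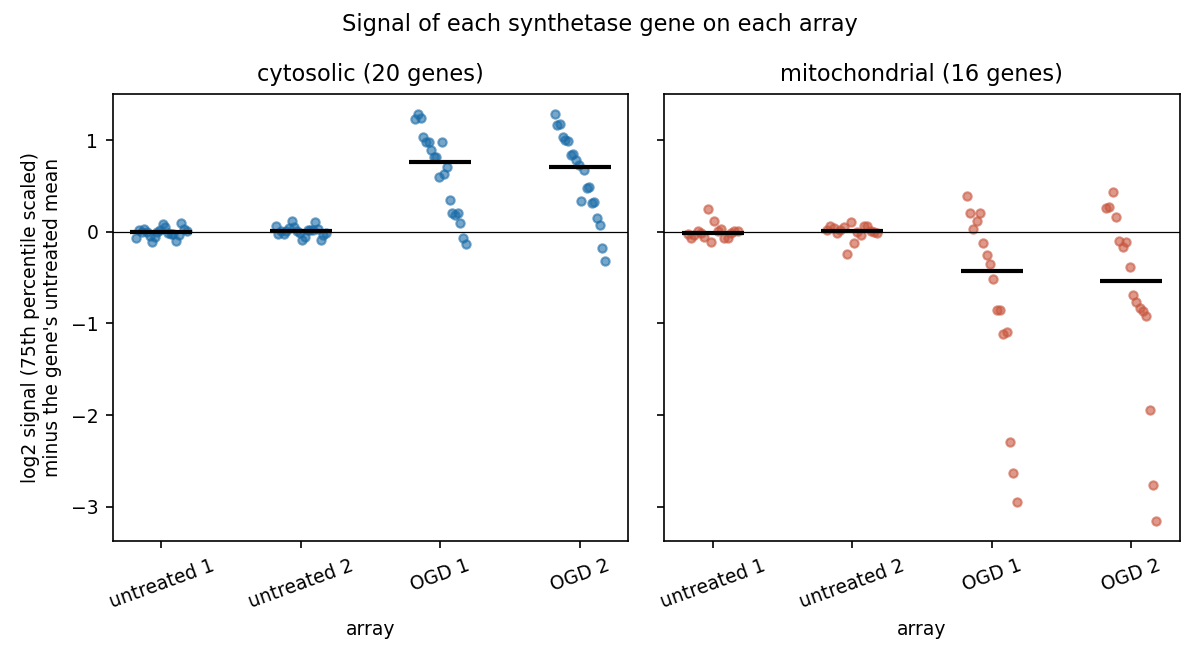
Log2 signal scaled on the 75th percentile, minus the gene's untreated mean, on each of the 4 arrays, with 1 point per gene for the 20 cytosolic (left) and 16 mitochondrial (right) genes, and a black bar at the median of the class. The class medians on the OGD arrays were 0.76 and 0.70 for the cytosolic genes and −0.43 and −0.54 for the mitochondrial ones. With spike-in scaling these medians were −0.50, −0.61, −1.70 and −1.85.

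Among the cytosolic genes, 4 rose by more than 2-fold, beside 12.7% of all genes called higher by that limit. They were *Cars*, *Tars*, *Sars* and *Gars*, the enzymes for cysteine, threonine, serine and glycine. With quantile normalization they were at 0.90, 0.79, 0.74 and 0.26, and the only cytosolic gene higher by more than 2-fold was *Dars*, at 1.00 (9.89% of all genes). Their brightest probes lay on mm9 at chr7:150743615-150743674 (minus strand), chr15:11313527-11313586 (minus), chr3:108229539-108229598 (minus) and chr6:55029377-55029436 (plus). *Cars* had processed signals of 10147 and 11238 untreated and of 10334 and 9374 after OGD. These unscaled values overlapped, while the scaled log2 value went from 2.31 ± 0.090 to 3.57 ± 0.036 (SD, n = 2). This was a log2 fold change of 1.26 (SE 0.089, limma adjusted p = 0.00155), the largest rise of the 36 genes on this scale, against −0.033 with spike-in scaling.

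*Tars* had signals of 13422 and 13184 untreated and of 13392 and 10798 after OGD. Its log2 fold change was 1.23 (SE 0.087, limma adjusted p = 0.00155), or −0.061 on the spike-in scale. For *Sars* the signals were 14690 and 15016 untreated and 14524 and 12078 after OGD. Both OGD values were below both untreated ones before scaling, and above them after it, at a log2 fold change of 1.21 (SE 0.079, limma adjusted p = 0.00137) against −0.080 on the spike-in scale. *Gars* gave 44788 and 43699 untreated and 37470 and 32749 after OGD. Its log2 fold change was 1.04 (SE 0.077, limma adjusted p = 0.00164), and −0.25 with spike-in scaling. On the spike-in scale, none of these 4 genes passed the adjusted p, which lay between 0.0676 for *Gars* and 0.807 for *Cars*.

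The promoters of the members were searched for the response element shared by C/EBP and ATF factors, TGATGNAA, on both strands, in the 250 bases before the start. RefSeq promoters of GRCm38.p6 were given for 27 of the 36 members. The element was found in 3 of 13 cytosolic promoters (23.1%), in 0 of 15 promoters of 14 mitochondrial genes and in 3.45% of all 32851 promoters. The 3 matches are shown because their genes, *Gars*, *Aars* and *Tars*, all rose on the main scale and fell or did not pass on the spike-in scale. Capitals mark the match, which lies on the reverse strand in each:
Gars, chr6:55037951-55037998, plus strand: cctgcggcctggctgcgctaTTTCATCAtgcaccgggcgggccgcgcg
Aars, chr8:111033710-111033757, plus strand: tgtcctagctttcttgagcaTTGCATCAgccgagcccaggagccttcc
Tars, chr15:11399659-11399693, minus strand: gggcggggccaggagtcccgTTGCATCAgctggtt
The match began 30, 112 and 15 bases before the start of *Gars*, *Aars* and *Tars*. A match describes these letters in these windows and not a site in use, and among the genes with no promoter in the table was *Cars*.

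A form of the motif of the nuclear respiratory factor NRF1, GCGCA and GCGC with 1 free base between them, was searched in the same way. NRF1 is a regulator of many nuclear genes for mitochondrial proteins. The motif was found before *Kars* and *Tars*, 2 of 13 cytosolic promoters (15.4%), in 0 of 15 mitochondrial promoters and in 3.74% of all promoters. The pair is shown because both matches belonged to cytosolic genes, and no position is shared with the response element above. Capitals mark the match, again on the reverse strand:
Kars, chr8:112011374-112011423, minus strand: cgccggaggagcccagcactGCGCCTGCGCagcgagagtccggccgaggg
Tars, chr15:11399798-11399847, minus strand: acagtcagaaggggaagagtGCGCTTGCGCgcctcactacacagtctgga

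Another 9 cytosolic genes rose by less than 2-fold. *Dars* for aspartate had a log2 fold change of 0.99, with signals of 1235 and 1263 untreated and 1014 and 903 after OGD. *Hars* for histidine was also at 0.99 (4936 and 5299 untreated, 4168 and 3672 after OGD). *Rars* for arginine was at 0.87 and *Kars* for lysine at 0.83. *Nars* for asparagine was at 0.80, and *Farsa*, the alpha subunit of the phenylalanine enzyme, at 0.66. *Aars* for alanine, *Lars* for leucine and *Iars* for isoleucine followed at 0.65, 0.59 and 0.42. Their limma adjusted p lay between 0.00169 for *Dars* and 0.0202 for *Iars*. With 1 array left out, its group has 1 array, which is assumed to vary like the other group, so the spread comes from the group of 2 and from all probes. Without untreated array 1 the calls of *Farsa*, *Lars* and *Iars* were lost, and without untreated array 2 those of the same 3 genes and of *Aars* (largest limma adjusted p 0.135, for *Iars*). On the spike-in scale these 9 genes ran from −0.30 for *Dars* to −0.87 for *Iars*.

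The remaining 7 cytosolic genes did not pass the test on the main scale. *Eprs*, which encodes 1 protein that charges both glutamate and proline tRNAs, was at a log2 fold change of 0.66 (SE 0.25, limma adjusted p = 0.0857). Its signals were 2368 and 2119 untreated but 1824 and 1023 after OGD, so that the OGD cultures differed from each other more than in any other cytosolic gene. With OGD array 1 as the only OGD array it was at 0.98 (limma adjusted p = 0.0111), and with OGD array 2 as the only one at 0.34 (limma adjusted p = 0.0908), the spread then coming from the untreated arrays. *Farsb*, the beta subunit of the phenylalanine enzyme, and *Vars* for valine were both at 0.26, and *Yars* for tyrosine at 0.18. *Wars* for tryptophan, a gene known to be induced by interferon, was at 0.083, and with quantile normalization it was called lower, at −0.47 (limma adjusted p = 0.0121). *Mars* for methionine was at −0.12 and *Qars* for glutamine at −0.23, the only negative values among the cytosolic genes. *Qars* went from 15076 and 15104 to 5686 and 4354 before scaling, and on the spike-in scale it fell by 1.52, the largest fall of the cytosolic genes (limma adjusted p = 0.000316). With OGD array 2 as the only OGD array, and the spread again from the untreated arrays, *Qars* was at −0.32 (limma adjusted p = 0.0417) and *Farsb* at 0.32 (limma adjusted p = 0.0467).

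In the cytosol, 8 of the enzymes sit together with 3 scaffold proteins in the multisynthetase complex. Of these 8 genes 5 rose (median log2 fold change 0.62), and of the 12 genes outside the complex 8 rose (median 0.73), beside 37.1% of all genes. With spike-in scaling 0 rose and 7 fell in each group (medians −0.66 and −0.56), beside 3.84% of all genes higher and 83.3% lower. With quantile normalization 3 genes of the complex and 7 outside it rose and 1 of each fell, beside 28.3% and 31.1% of all genes. The synthetases also fall into 2 classes by the fold of the catalytic domain. *Eprs* joins an enzyme of each class and was counted here in class I. Among the cytosolic genes, 9 of the 10 of class II rose (median 0.91) and 4 of the 10 of class I (median 0.34), the latter near the 37.1% of all genes called higher. The medians of these classes on the spike-in scale were −0.38 and −0.95, with 0 genes higher in either. The mitochondrial genes did not show this order, with medians of −0.61 for the 7 of class II and −0.37 for the 9 of class I.

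Among the mitochondrial genes, 4 fell by more than 2-fold, beside 15.0% of all genes called lower by that limit, and on this scale none passed the 10-fold limit of the methods (0 of 36 members in either direction, beside 0.707% of all genes higher and 0.56% lower). With spike-in scaling 15 mitochondrial and 6 cytosolic genes were lower by more than 2-fold (55.7% of all genes), and 3 mitochondrial genes, *Rars2*, *Pars2* and *Lars2*, by more than 10-fold (4.18% of all genes). *Rars2* encodes the mitochondrial arginine enzyme, and its mutations cause a form of pontocerebellar hypoplasia. The brightest probe lay at chr4:34607264-34607323 (plus strand, mm9). The signal went from 9969 and 9979 untreated to 534 and 404 after OGD. The scaled fall was 8.29-fold, a log2 fold change of −3.05 (SE 0.11, limma adjusted p = 0.000731), the largest change of the 36 genes, and −4.34 on the spike-in scale.

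*Pars2*, the mitochondrial proline enzyme (probe at chr4:106327826-106327885, plus strand), went from 2713 and 2720 to 180 and 144. It fell 6.50-fold, at a log2 fold change of −2.70 (SE 0.088, limma adjusted p = 0.000731). *Lars2*, the leucine enzyme whose mutations cause Perrault syndrome (probe at chr9:123371457-123371516, plus strand), went from 3503 and 3599 to 298 and 334. Its fall was 4.34-fold, at −2.12 (SE 0.15, limma adjusted p = 0.00152). In all 3 genes both OGD arrays lay far below both untreated arrays before any scaling, and the untreated replicates were nearly equal. *Vars2* for valine was at −1.01 (2.01-fold lower), from 1017 and 1125 to 207 and 204.

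Another 5 mitochondrial genes fell by less than 2-fold. *Wars2* for tryptophan was at −0.99 by its brightest probe but at 1.71 by its upstream one, and with the mean over probes it was called higher. *Aars2* for alanine was at −0.85 and *Hars2* for histidine at −0.81. *Tars2* for threonine was at −0.61 and *Cars2* for cysteine at −0.37. The limma adjusted p was lowest for *Aars2*, at 0.00241, and for *Cars2* it was 0.0453, just under the limit. Leaving out any 1 array took the *Cars2* call away, and the *Tars2* call was lost without untreated array 1, untreated array 2 or OGD array 2.

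The gene that rose was *Ears2*, which charges glutamate onto mitochondrial tRNAs, including the glutamine tRNA. Its signal was 613 and 639 untreated and 338 and 270 after OGD, at a log2 fold change of 0.32 (SE 0.089, limma adjusted p = 0.0384). The call was lost without untreated array 1, without untreated array 2 and without OGD array 1, and on the spike-in scale *Ears2* fell, at −0.97. The 6 mitochondrial genes that did not pass were *Sars2* for serine and *Mars2* for methionine (both 0.23), *Fars2* for phenylalanine (0.14), *Yars2* for tyrosine (0.048), *Iars2* for isoleucine (−0.15) and *Nars2* for asparagine (−0.18). With OGD array 2 alone set against the untreated arrays, which then gave the spread, *Mars2* was at 0.43 (limma adjusted p = 0.0278), and with OGD array 1 alone at 0.033. *Nars2* was dim, with signals of 64.6 and 46.7 untreated and 19.1 and 18.3 after OGD, and with normexp background correction it was called higher, at 0.79 (limma adjusted p = 0.000550).

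For 16 amino acids the list holds an enzyme for each compartment, which makes 17 pairs when both subunits of the cytosolic phenylalanine enzyme are set against *Fars2*. The pairs are not independent, since *Eprs* and *Fars2* each enter 2 of them. By the brightest probes, the cytosolic gene had the higher log2 fold change in 16 of 17 pairs, with a median difference of 1.07. By other probes well above background some pairs reversed. The upstream probes of *Wars2* (1.71) and *Iars2* (0.85) were above *Wars* (0.083, or 0.69 at its upstream probe) and *Iars* (0.42). The upstream probe of *Farsa* (0.11) was below *Fars2* (0.14). The difference was 3.92 between *Rars* and *Rars2*, 3.36 between *Eprs* and *Pars2*, and 2.71 between *Lars* and *Lars2*. It was 1.83 for threonine, 1.80 for histidine and 1.62 for cysteine. The exception was methionine, where *Mars2* was above *Mars* by 0.36 and neither gene passed the test. In 6 pairs the cytosolic gene rose and the mitochondrial gene fell, in 0 pairs the reverse, beside 37.1% of all genes called higher and 27.8% lower. On the spike-in scale 0 of 20 cytosolic genes were called higher, so these 6 pairs did not have opposite calls there. A scaling by 1 number per array moves both genes of a pair by the same amount and leaves these differences as they are. With normexp correction the cytosolic gene was higher in 16 pairs again, but the difference for asparagine went from 0.98 to 0.053.

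**Figure D3:**
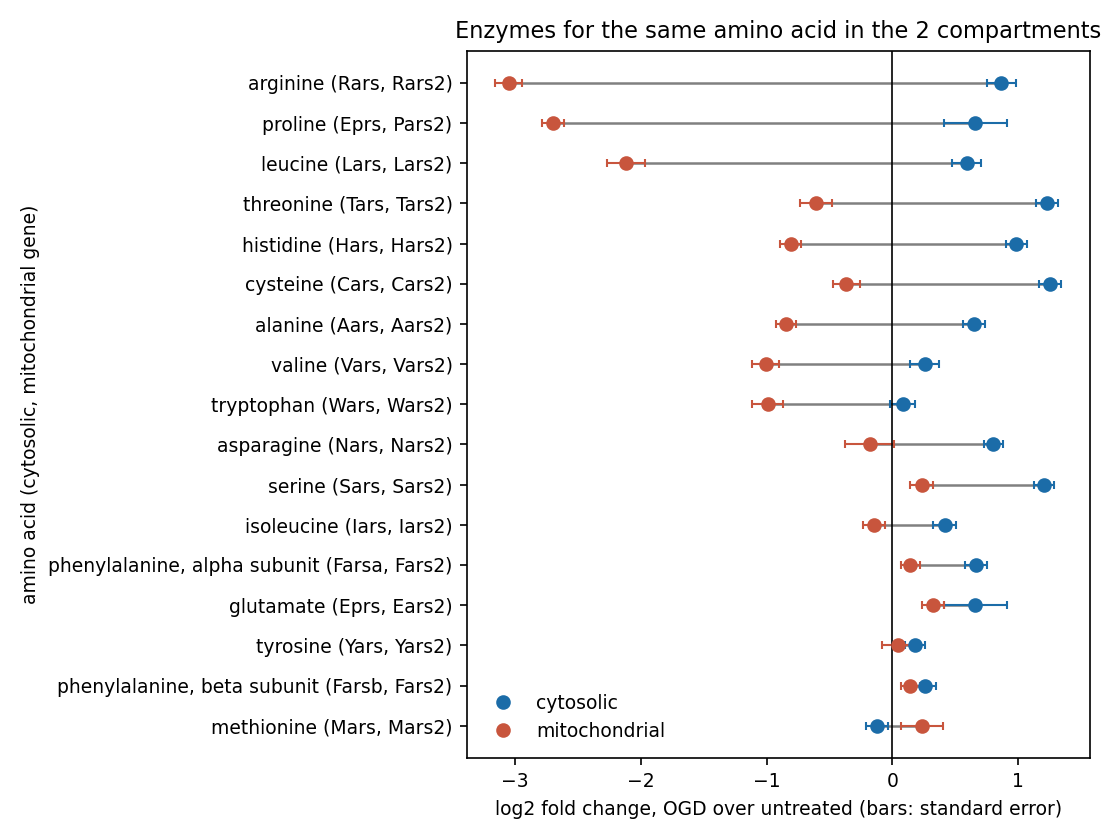
Log2 fold change (OGD over untreated, 75th percentile scaling, bars: limma standard error, n = 2 arrays per group) of the cytosolic (blue) and mitochondrial (red) enzyme for the same amino acid, 1 line per pair, by the brightest probe of each gene. The red point is left of the blue one in all rows but methionine, and the gap runs up to 3.92 for arginine. Scaling on the spike-in probes would shift all points to values below 0 and leave the gaps unchanged.

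The other charging enzymes examined beside the 36 included those that complete the charging of mitochondrial glutamine tRNA. That tRNA is first charged with glutamate by the *Ears2* enzyme and then amidated by a complex of the products of *Gatb*, *Gatc* and *Qrsl1*. *Gatc* went from 607 and 652 to 95.9 and 84.4, a log2 fold change of −1.43 (limma adjusted p = 0.00107), and its dimmer probe was at −0.81. *Qrsl1* was at −1.33 (limma adjusted p = 0.00156). *Gatb* did not pass, at −0.054 (limma adjusted p = 0.576), and its dimmer probe was at 0.086. Of the 5 genes in this list, which also holds genes outside that complex, 3 fell and 0 rose, with a median of −0.73, beside 27.8% of all genes lower. All 5, like *Ears2*, fell with spike-in scaling, where 83.3% of all genes did.

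The array had more than 1 probe for 10 members, and the probes of a gene did not always move together. Over all probes tested, 37.9% were called higher and 27.1% lower. Their order was taken from the probe positions on mm9 and the strand. In *Wars2* the downstream probe (chr3:99023010-99023069, plus strand) was the brightest, at signals of 793 and 881 untreated and 160 and 165 after OGD. The upstream probe (chr3:99009150-99009209) was 13860 bases before it and gave 72.2 and 75.1 untreated and 98.7 and 87.5 after OGD. The first fell, at −0.99, and the second rose, at 1.71 (limma adjusted p = 0.000827), and the second was higher on the spike-in scale too, at 0.42 (limma adjusted p = 0.0159). It was the only one of the 47 probes with a positive value on that scale.

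*Iars2* gave a similar pair. Its upstream probe (chr1:187139773-187139832, minus strand) was at 0.85 (limma adjusted p = 0.00227), with signals of 326 and 336 untreated and 243 and 217 after OGD, and its downstream probe at −0.15. In *Wars* the upstream probe rose, at 0.69 (limma adjusted p = 0.0145), while the brightest one downstream was at 0.083. Over the 7 members with several probes well above background on all 4 arrays, the upstream probe had the higher change in 4 and the lower in 3. *Farsa* had 0.11, 1.05 and 0.66 from upstream to downstream. The probes of *Cars2* (−0.47 and −0.37), *Tars2* (−0.42 and −0.61) and *Vars2* (−1.23 and −1.01) moved in 1 direction. Another probe of *Nars2*, *Pars2* and *Aars* was not well above background on either OGD array. All 3 passed the filter only through the untreated arrays. With the deposited signal the *Nars2* probe was at least 2.01-fold and the *Pars2* probe at least 1.25-fold lower (limma adjusted p = 0.0390 and 0.0593), and the *Aars* probe had no bound. With normexp correction all 3 were called higher, so no direction was read from them.

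**Figure D4:**
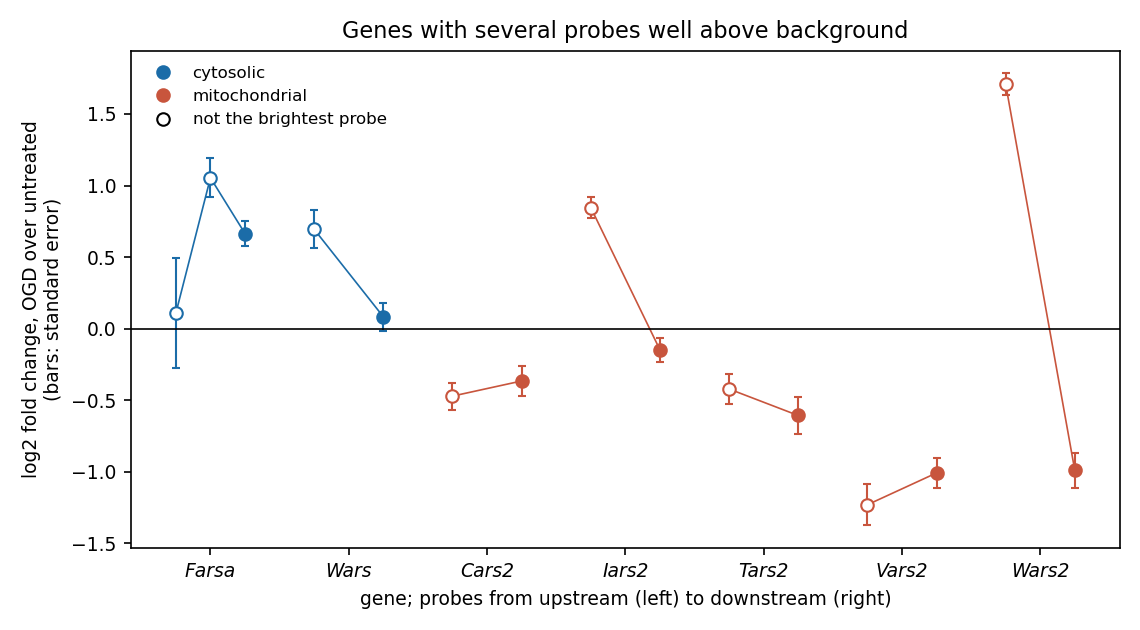
Log2 fold change (OGD over untreated, 75th percentile scaling, bars: limma standard error, n = 2 arrays per group) of each probe of the 7 members with several probes well above background on all 4 arrays, ordered from upstream to downstream. Filled points are the brightest probes, which stand for the gene in the counts. The probes of *Wars2* lie at 1.71 and −0.99, and those of *Iars2* at 0.85 and −0.15. With spike-in scaling all points but the upstream one of *Wars2* (0.42) would lie below 0.

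Of the 3 scaffolds of the multisynthetase complex, 2 rose and 0 fell, beside 37.1% of all genes called higher and 27.8% lower. *Eef1e1* rose, at a log2 fold change of 1.05 (limma adjusted p = 0.00295), from signals of 5636 and 6001 to 5315 and 4056 before scaling. *Aimp2* rose, at 0.99 (limma adjusted p = 0.00205), and *Aimp1* was at 0.35 (limma adjusted p = 0.221). Their values were −0.24, −0.30 and −0.94 on the spike-in scale, where 0 were called higher and 1 lower, beside 3.84% and 83.3% of all genes.

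Among 20 regulators of the integrated stress response, 11 rose and 3 fell, with a median of 0.46, beside 37.1% of all genes higher and 27.8% lower. With spike-in scaling 8 rose and 12 fell, with a median of −0.82, beside 3.84% and 83.3% of all genes. *Atf4* itself went from 78900 and 80058 to 129254 and 117154, so its signal was higher after OGD without any scaling. Its log2 fold change was 2.00 (SE 0.076, limma adjusted p = 0.000767), and 0.72 on the spike-in scale. The ATF4 partner and target *Ddit3*, which encodes CHOP, was at 2.77. *Trib3*, a pseudokinase that restrains ATF4, rose most, at 4.36. Both were higher on the spike-in scale too, at 1.48 and 3.07. *Eif2ak4*, which encodes GCN2, was at −0.50 (limma adjusted p = 0.137), with signals of 3415 and 3444 untreated and 803 and 1087 after OGD at its brightest probe. Its other probes, dimmer but well above background on all 4 arrays, were called higher, at 2.17 and 0.90 (limma adjusted p = 0.0172 and 0.00249). On the spike-in scale these were at 0.88 and −0.39. The largest fall was that of *Eif2ak2*, the kinase activated by double-stranded RNA, at −2.43.

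Of 20 ATF4 targets in amino acid supply, 17 rose and 2 fell, with a median of 1.14, beside the same shares of all genes (37.1% and 27.8%). *Asns*, which makes asparagine, rose at 1.42, with signals of 10438 and 10132 untreated and 13495 and 8406 after OGD. The unscaled OGD values of *Asns* lay on either side of the untreated ones, and on the spike-in scale it was at 0.14 (limma adjusted p = 0.544). *Chac1*, an enzyme that degrades glutathione, rose most at 4.51, and *Slc7a11*, the cystine transporter, fell most at −1.36. The signals of *Slc7a11* were 119 and 122 untreated and 17.7 and 18.4 after OGD, and with normexp correction its change was −0.029 (limma adjusted p = 0.791), leaving 1 gene of the list lower. Spike-in scaling left 5 of these 20 targets higher and 9 lower, with a median of −0.15, beside 3.84% and 83.3% of all genes.

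The elongation factors, which bring charged tRNA to the ribosome and move it along, were compared in the same way, again beside 37.1% of all genes higher, 27.8% lower and a median of 0.16. Of 5 genes of the cytosol 3 rose and 0 fell (median 0.87), with *Eef2* at 1.13. With quantile normalization 1 of the 5 rose and the median was 0.037, when 28.3% of all genes were called higher and 31.1% lower. Of 8 translation factors of mitochondria 1 rose and 3 fell (median −0.15), with *Gfm1* at 0.39 and *Mtrf1* at −1.39. Among 9 genes of tRNA maturation, export and proofreading, 3 rose and 2 fell (median 0.14), near the shares and the median of all genes. With quantile normalization the median of these 9 was −0.093, and 0 of the mitochondrial factors rose. *Sepsecs* and *Pstk*, which act one after the other to make selenocysteine on its tRNA, moved in opposite directions, at 1.12 and −1.29. With spike-in scaling 0 genes of these 3 lists were higher, beside 3.84% of all genes.

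**Figure D5:**
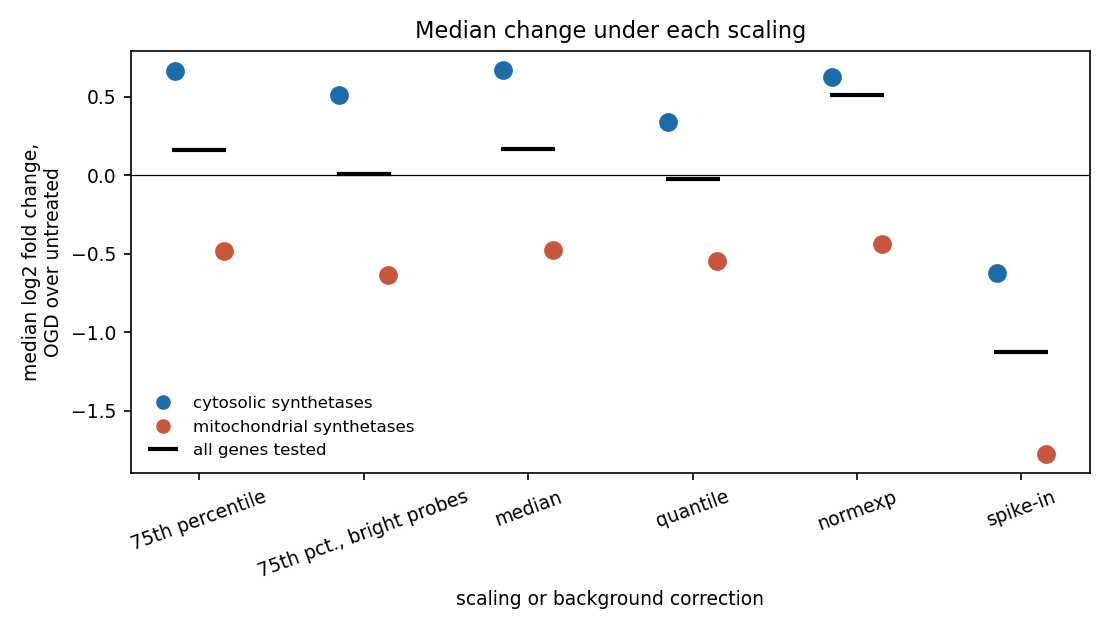
Median log2 fold change (OGD over untreated) of the 20 cytosolic (blue) and 16 mitochondrial (red) synthetase genes and of all 21061 genes tested (black bars) under 5 scalings and 1 background correction. The blue point is above the red one in each, by 0.89 with quantile normalization to 1.15 with the 75th percentile, and both are below 0 with spike-in scaling, at −0.63 and −1.77.

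The distance of the cytosolic genes from all other genes depended on the background correction, the filter and the normalization. Their median was above that of all genes by 0.50 with the deposited signal and by 0.11 with normexp correction, where 60.5% of all genes were called higher and 20.8% lower. The mitochondrial median was below that of all genes by 0.65 and 0.95 in the same settings. With no filter on dim probes the cytosolic median was 0.25 above that of all genes and the mitochondrial one 0.90 below it. The cytosolic distance was 0.36 with quantile normalization.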

How the data were processed

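The array was the Agilent mouse gene expression array 4 x 44K v2. The authors deposited 1 scanner file per array with a processed signal, an intensity in which Agilent Feature Extraction (11.5.1.1, per the file headers) had subtracted background within the array. The deposited series table holds the same intensity (largest difference 0) and was an alternative. Arrays have no read depth, and precision rests on 2 arrays per group and on signal over background. Of the 43020 spots, 73.7% and 73.0% were well above background without treatment and 66.2% and 64.5% after OGD, with 0 saturated.

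Log2 of the signal was taken, control and outlier spots (119 to 132 per array) were left out, spots of a probe were averaged, and each array's 75th percentile was subtracted. A probe was kept if both arrays of a group showed it well above background (a spot fraction of 0.5 or more), and 28254 probes were tested in R 4.3.3 with limma 3.58.1 (lmFit, eBayes), without a block, with Benjamini–Hochberg adjustment over these probes. A gene has the value of its brightest probe kept. For a probe dim in 1 group, the bound compares the bright group's mean with a floor, averaged over the dim arrays, which is the larger of the probe's signal and the array's lowest signal well above background. The members, lists and alternatives were chosen with earlier results of these data known, so no list was tested. Every member was named, and from each list the largest rise and fall past the limit, together with the scaffolds, *Gatb*, *Qrsl1*, *Atf4*, *Eif2ak4*, *Ddit3*, *Trib3* and *Asns*. One gene of the lists is not reported here. The steps were tested on simulated data. Positions of probes are on mm9, for which no annotation was used, so their exons are not given. Python 3.11.15 (pandas 2.3.3, numpy 2.4.6, matplotlib 3.10.9) was used for tables and figures.

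Alternatives included a replicate block, the methods' t-test, limma with trend and robust prior, normexp on the mean signal (offset 50), median or quantile normalization, a 75th percentile taken over bright probes (well above background on all arrays), spike-in scaling (9 of 10 probes), no or a stricter filter, outlier spots kept, the mean over probes, each array left out, and limits of 2-fold and 10-fold.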

Additional observations from a re-analysis of the deposited data

How the results depend on the processing

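The cytosolic median stayed above the mitochondrial one in every setting tried, by 0.89 (quantile) to 1.24 (an array left out), with 1.06 under normexp and 1.10 with the mean over probes, and the range with 1 array left out was 1.19 to 1.24. With 1 array left out the cytosolic median was 0.63 to 0.76 and the mitochondrial −0.57 to −0.43. Cytosolic genes lower were 2 with quantile normalization and with the 75th percentile over bright probes, beside 31.1% and 32.5% of all genes lower. Mitochondrial genes higher were 0 with the t-test (25.8% of all genes), median scaling (37.3%), the 75th percentile over bright probes (30.1%) and no filter (37%). They were 3 with normexp (60.5% of all genes) and with the mean over probes (36.9%). The cytosolic median was 0.62 with normexp, 0.34 with quantile normalization and 0.51 with bright probes, and the mitochondrial median −0.55 and −0.64 in the last 2. With spike-in scaling cytosolic genes higher were 0 and lower 14, and mitochondrial genes higher 0 and lower 16. Of all genes 3.84% were then higher and 83.3% lower, and the class medians were −0.63 and −1.77. On the main scale, 4 cytosolic and 0 mitochondrial genes were higher and 4 mitochondrial lower at 2-fold, and at 10-fold all these counts were 0. Of all genes 12.7% were higher and 15.0% lower at 2-fold, and 0.707% and 0.56% at 10-fold. The causes were not tested.

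Between arrays of the same replicate number, the deviations from the group means had a correlation of −0.057. The crossed value of 0.057 adds no evidence, since the deviations within a group are equal and opposite. With so few arrays per group, this correlation cannot decide whether the cultures were paired. With the replicate number as a block, 14 cytosolic genes were higher, 8 mitochondrial lower and 0 higher, beside 34.3% of all genes higher and 26.4% lower. The methods' t-test called 11 cytosolic genes higher and 7 mitochondrial lower after adjustment, beside 25.8% of all genes higher and 19.8% lower.

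On the spike-in scale 23 genes changed sign. The cytosolic ones were *Aars* (−0.64), *Cars* (−0.033), *Dars* (−0.30), *Eprs* (−0.63), *Farsa* (−0.62), *Farsb* (−1.03), *Gars* (−0.25), *Hars* (−0.30), *Iars* (−0.87), *Kars* (−0.46), *Lars* (−0.70), *Nars* (−0.49), *Rars* (−0.42), *Sars* (−0.080), *Tars* (−0.061), *Vars* (−1.03), *Wars* (−1.21) and *Yars* (−1.11). The mitochondrial ones were *Ears2* (−0.97), *Fars2* (−1.15), *Mars2* (−1.05), *Sars2* (−1.05) and *Yars2* (−1.24). Elsewhere these changed sign: *Wars* (−0.016 normexp, −0.47 quantile and called there, −0.070 bright probes, −0.0087 to 0.17 with 1 array left out), *Yars2* (−0.037, −0.0023 and −0.11 in the first 3, −0.10 to 0.20 with 1 array left out), *Fars2* (−0.086 quantile, −0.012 bright probes), *Nars2* (0.79 normexp and called there, 0.062 without untreated array 1) and, with the mean over probes, *Iars2* (0.35) and *Wars2* (0.36), both called there.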
